A study of Mus musculus with 73 samples.

Results

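Sfmbt2 and its neighbour Gm13261 form an imprinted pair on mouse chromosome 2 that is read from the paternal allele in extraembryonic ectoderm (ExE), the trophoblast tissue next to the epiblast that later contributes to the placenta. They were taken by name from the deposited table and are 2 of its 30546 genes. The study asked which chromatin regulators maintain parental imprints at this stage, in embryonic and in trophoblast tissue. It compared RNA of epiblast and ExE from single embryos at embryonic day 6.5, with about 300 to 600 cells per library and 72 libraries in all.

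BDF1xCAST wild-type embryos (BDF1 mother, CAST father) gave 7 epiblast and 7 ExE libraries, and CASTxBDF1 wild-type embryos (CAST mother, BDF1 father) gave 4 of each. BDF1 is a hybrid laboratory strain and CAST a wild-derived strain, so reads over their sequence differences can be assigned to a parent. The 4 knockouts were made only in BDF1xCAST embryos, where the paternal allele is CAST, so they do not set parent apart from strain. They removed Dnmt1, the enzyme that copies DNA methylation at replication (3 epiblast and 3 ExE libraries), both Ehmt1 and Ehmt2, which encode the histone H3 lysine 9 methyltransferases GLP and G9a (labelled G9a-Glp, 6 and 8), Rnf2, the ubiquitin ligase of Polycomb repressive complex PRC1 (6 and 5), and Eed, a core subunit of PRC2 (9 and 10). Per the labels' protocols, BDF1xCAST zygotes were made by sperm injection, knockouts were made by injecting Cas9 mRNA with several guides into the zygote, and blastocysts were carried by CD-1 foster mothers. The CASTxBDF1 embryos came from natural mating, so cross direction and the way of fertilisation cannot be told apart. The labels do not say whether wild-type zygotes received a mock injection, and embryos edited at the zygote stage need not carry the same mutation in every cell.

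SFMBT2 is a Polycomb-group protein with MBT repeats that binds repressive chromatin, and the mouse gene is needed in trophoblast for a normal placenta. Its imprint belongs to the noncanonical kind: the maternal allele arrives from the oocyte with Polycomb-deposited H3K27me3 instead of DNA methylation, and silencing is later kept up in extraembryonic tissue only. Gm13261 is a long noncoding RNA gene beside the Sfmbt2 start. A large cluster of microRNA genes lies within an intron of Sfmbt2.

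In the deposited coordinates (mm10, written from 1), Gm13261 covers chr2:10327340-10365161 and Sfmbt2 covers chr2:10370437-10595253. RefSeq places Gm13261 on the minus and Sfmbt2 on the plus strand, so they point away from each other, with 5275 bases between them and no overlap. The 15 genes listed inside Sfmbt2 are all microRNA genes, and they held 110 reads over all libraries against 84201 over Sfmbt2. The sequences below show annotated start regions of both genes, from 250 bases before to 50 bases after a RefSeq start (GRCm38.p6, both symbols matched), written 5′ to 3′ on the gene's strand. Capitals mark CpG dinucleotides (the letters CG, which read the same on both strands), the sites at which DNMT1 copies methylation. The first is the Sfmbt2 start at chr2:10370201-10370500 (plus strand), the next a second Sfmbt2 start at chr2:10372186-10372485 (plus strand), and the last the outermost of 3 annotated Gm13261 starts, at chr2:10365112-10365411 (minus strand).
Sfmbt2 first start: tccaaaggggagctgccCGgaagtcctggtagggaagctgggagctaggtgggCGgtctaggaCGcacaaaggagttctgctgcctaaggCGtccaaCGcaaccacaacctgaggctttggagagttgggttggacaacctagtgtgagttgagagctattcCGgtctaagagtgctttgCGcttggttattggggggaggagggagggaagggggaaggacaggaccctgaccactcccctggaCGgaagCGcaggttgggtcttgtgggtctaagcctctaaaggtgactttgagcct
Sfmbt2 second start: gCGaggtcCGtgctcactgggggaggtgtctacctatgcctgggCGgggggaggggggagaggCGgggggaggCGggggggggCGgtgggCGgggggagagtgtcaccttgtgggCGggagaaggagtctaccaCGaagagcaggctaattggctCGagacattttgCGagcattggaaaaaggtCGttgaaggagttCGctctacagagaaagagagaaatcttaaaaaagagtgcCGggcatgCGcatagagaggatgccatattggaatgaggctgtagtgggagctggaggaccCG
Gm13261 start: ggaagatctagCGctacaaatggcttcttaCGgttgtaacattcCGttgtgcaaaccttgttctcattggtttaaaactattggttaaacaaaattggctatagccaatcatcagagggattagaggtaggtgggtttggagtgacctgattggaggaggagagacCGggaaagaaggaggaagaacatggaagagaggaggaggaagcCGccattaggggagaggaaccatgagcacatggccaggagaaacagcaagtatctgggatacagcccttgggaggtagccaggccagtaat
The first Sfmbt2 window held 9 CpG, the second 16 and the Gm13261 window 5. The other 2 Gm13261 windows, which overlap the one shown, held 3 CpG each. Over 32851 such windows of mouse genes the median was 7 CpG, and 94.6% held at least 1. Windows with fewer CpG made up 54.2%, 67.0% and 38.0% of all windows for the 3 shown, and 23.3% for the other 2. No methylation values were analysed here.

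Library depth was 1141414 to 17653087 reads over polymorphisms. Rnf2 epiblast libraries held 5549733 to 17653087 of them. Those of Rnf2 ExE varied from 1847681 to 10263280, and all libraries of the other groups had at most 3976031. Autosomal genes as a whole gave 56.3% to 58.5% maternal reads in every BDF1xCAST library and 41.9% to 43.9% in the CASTxBDF1 libraries, so equal expression of the alleles reads as about these shares, not as an even split. In the BDF1xCAST wild type the markers went with the tissue labels. There 7 ExE markers summed to 647 to 1207 CPM (the count scaled to the library's total) in ExE and to 33.7 to 241 CPM in the epiblast. The 6 epiblast markers summed to 142 to 317 and 474 to 948 CPM. In CASTxBDF1 the ExE markers summed to 866 to 918 and 61.2 to 142 CPM, but the epiblast markers to 145 to 518 and 480 to 760 CPM, which overlapped. Of 5 epiblast markers tested between wild-type tissues, 3 were lower and 1 higher in ExE, beside 66.4% of all genes called. Only reads over polymorphisms were counted, so levels are compared between libraries and not between genes. Each library of a group came from a separate embryo. In Eed, embryo numbers of 7 and above go with different title numbers in the 2 tissues, so an equal number need not mean the same embryo. Transcript of the targeted gene (for G9a-Glp, of both) was not below the wild-type range, also with the lowest wild-type library set aside, in G9a-Glp epiblast libraries 2 and 7, Dnmt1 ExE library 1 and Rnf2 ExE libraries 2, 5 and 6 (numbers are embryos). RNA level does not show whether a frameshift was made, and results that change without these libraries are named below. With the lowest BDF1xCAST wild-type library kept, 0 of 5 Rnf2 ExE libraries lay below the wild type (21.9 to 62.7 against 21.4 to 65.9 CPM of Rnf2).

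In wild-type ExE, both genes were read almost wholly from the paternal allele in both cross directions. Sfmbt2 stood at 360 to 618 CPM (median 401) in the 7 BDF1xCAST libraries and at 432, 456, 484 and 334 CPM in the CASTxBDF1 libraries. The mean maternal share was 0.0551% ± 0.0941 (SD, n = 7) and 0% (n = 4). In 9 of these 11 libraries the deposited values fix the share only to within 0.5 percentage points, so summed over libraries up to 36 of 8928 reads (0.403%) could be maternal in BDF1xCAST and up to 29 of 6073 (0.478%) in CASTxBDF1. Gm13261 stood at 55.3 to 101 CPM (median 73.5) in BDF1xCAST ExE and at 116, 121, 91.2 and 61.5 CPM in CASTxBDF1 ExE. Its maternal share was 1.92% in BDF1xCAST embryo 4 (4 of 208 reads) and 0% in the other 6, where 3 counts would be 1.06% to 1.78%. In CASTxBDF1 it was 0.515%, 0%, 0% and 3.12%. Every library thus kept the paternal allele whether the father was CAST or BDF1. The parental log2 ratio (maternal over paternal, strain set apart by the reciprocal crosses) was -12.12 for Sfmbt2 (edgeR quasi-likelihood test, adjusted p = 6.63e-17) and -7.72 for Gm13261 (adjusted p = 8.14e-13). Over all 8654 genes tested, 0.844% were called with a parental bias in ExE.

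The wild-type epiblast held little of either transcript. Sfmbt2 ranged from 0.66 to 11.4 CPM (median 5.14) in BDF1xCAST and stood at 3.71, 30.1, 8.20 and 13.4 CPM in CASTxBDF1 epiblast. Relative to epiblast, total reads in wild-type ExE were higher by 5.89 log2 units (SE 0.34) for Sfmbt2 and by 4.83 (SE 0.47) for Gm13261 (edgeR adjusted p = 6.54e-14 and 1.37e-09, both crosses), in a comparison in which 66.4% of all genes were called. The epiblast share rested on few reads: 5 BDF1xCAST libraries had at least 10 Sfmbt2 reads (12 to 15), with maternal shares from 30.8% to 93.3%. The 4 CASTxBDF1 libraries gave 40.0%, 8.86%, 5.00% and 5.41% from 10, 79, 20 and 37 reads. The groups overlapped at the level of single libraries, and the parental log2 ratio of Sfmbt2 in epiblast, -1.37, did not pass (edgeR adjusted p = 0.674, where 0.319% of genes were called). In the 2 CASTxBDF1 libraries with the most Sfmbt2, Elf5, a transcription factor gene of ExE, stood at 13 and 8.69 CPM, above the 0 to 3.81 CPM of BDF1xCAST epiblast. Embryo 2, with the most Sfmbt2 of these (30.1 CPM), also held 2037 CPM of the 7 visceral endoderm markers, against 3.98 to 31.2 CPM in the other 3. In BDF1xCAST epiblast embryo 8, which set the maximum of both Sfmbt2 and Gm13261, these markers summed to 443 CPM, against 2.11 to 66.1 CPM in the other 6. The part of either tissue in these values was not tested. The allelic ratio itself differed between the tissues by -11.07 log2 units for Sfmbt2 (edgeR adjusted p = 4.54e-13) and by -6.30 for Gm13261 (adjusted p = 0.00685), with 0.255% of genes called. With the embryo as a replicate block, since both tissues came from the same embryos, Sfmbt2 kept its call and Gm13261 did not (-6.62, adjusted p = 0.0531).

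**Figure D1:**
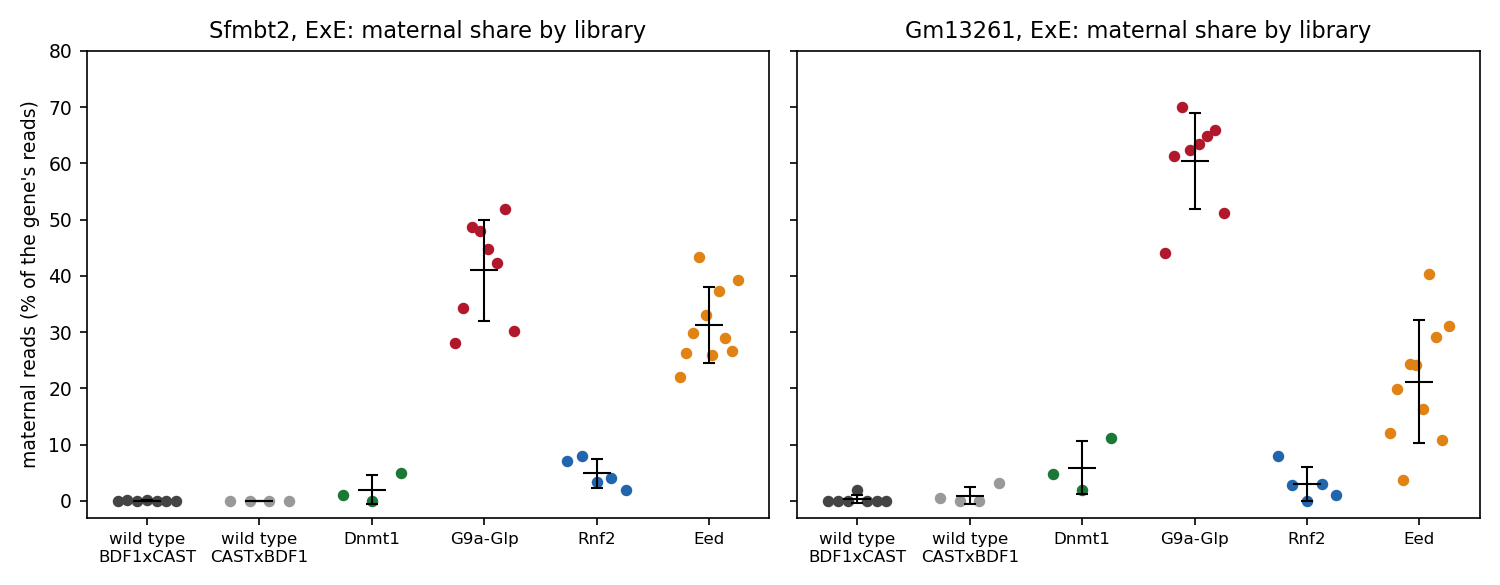
Maternal share of Sfmbt2 (left) and Gm13261 (right) in each ExE library, in percent of the gene's reads, with 1 point per library and the mean and SD of each group in black. Wild-type libraries lie at or near 0, the 8 G9a-Glp libraries between 28.1% and 51.8% for Sfmbt2, and the 10 Eed libraries between 22.1% and 43.4%.

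In G9a-Glp knockout ExE both genes were read from both alleles, with the highest mean maternal shares of the 4 knockouts. The Sfmbt2 maternal share rose to 41.0% ± 9.01 (SD, n = 8), with a lowest library of 28.1%, a median of 43.5% and a highest of 51.8%. Every knockout library lay far above the highest wild-type value of 0.199%, also with the limits of rounding. The log2 change in allelic ratio was 10.29 (edgeR adjusted p = 3.69e-16). Gm13261 rose to 60.4% ± 8.51 (44.1% to 70.0%, median 62.9%), a change of 8.89 log2 units (adjusted p = 8.27e-15), and so lay around the 56.5% to 57.4% of all autosomal genes in these libraries. Of all genes tested, 1.1% were called for allelic ratio in G9a-Glp ExE, and the median log2 change was -0.00738.

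Total Sfmbt2 rose with it, from 438 ± 88.2 CPM (n = 7) to 950 ± 231 CPM (677 to 1338, n = 8), so the groups did not overlap. The log2 change was 1.05 (SE 0.15, edgeR adjusted p = 6.93e-05), with 15.2% of genes called. Split by allele, the maternal copy went from 0.209 ± 0.357 to 399 ± 154 CPM and lay above every wild-type library in 8 of 8 (exact permutation test, adjusted p = 0.00266 over the 32 allele comparisons made). The paternal copy stood at 551 ± 110 against 438 ± 88.4 CPM, which did not pass (exact permutation test, adjusted p = 0.0781). Gm13261 totals rose to 147 ± 70.4 CPM (72.1 to 299) from 74.8 ± 15.7, or by 0.93 log2 units (SE 0.27, edgeR adjusted p = 0.0245), and overlapped the wild type at the low end. Its maternal copy rose to 90.7 ± 49.5 CPM (exact permutation test, adjusted p = 0.00266) and its paternal copy stood at 56.0 ± 23.1 against 74.6 ± 15.6 CPM (adjusted p = 0.131). Embryo 9 held by far the most Gm13261, with 197 CPM maternal and 102 CPM paternal.

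In Eed knockout ExE both genes also gave many maternal reads. Sfmbt2 rose to 31.3% ± 6.79 maternal (n = 10), from 22.1% in the lowest library through a median of 29.5% to 43.4% in the highest, a change of 9.69 log2 units (edgeR adjusted p = 2.07e-17). Gm13261 rose to 21.2% ± 10.9, with a wide spread from 3.80% to 40.4% (6.51 log2 units, edgeR adjusted p = 6.22e-08). In maternal share all 10 libraries lay above every BDF1xCAST wild-type library for either gene. The lowest Gm13261 share came from 3 of 79 reads (embryo 3), beside 4 of 208 reads for the highest in that wild type. By the CPM of the maternal Gm13261 copy 9 of 10 lay above. The share of all genes called was 2.65%. Total Sfmbt2 rose to 861 ± 187 CPM (624 to 1313), above every wild-type library (0.81 log2 units, SE 0.14, edgeR adjusted p = 0.000124), beside 40.8% of all genes.

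The level of each allele was then compared in Eed ExE. The maternal copy of Gm13261 stood at 14.5 ± 16.8 CPM against 0.213 ± 0.563 (exact permutation test, adjusted p = 0.037). This difference depended on library scaling and missed the threshold on TMM-scaled library sizes, a scaling that sets aside the most changed genes (adjusted p = 0.0763). The paternal copy fell to 41.6 ± 24.8 from 74.6 ± 15.6 CPM and lay below every wild-type library in 8 of 10 (exact permutation test, adjusted p = 0.0193). Embryos 7 and 10 stood apart with 116 and 143 CPM in total, against 20.3 to 57.2 CPM in the other 8. Total Gm13261 changed by -0.51 log2 units (SE 0.35), which did not pass (edgeR adjusted p = 0.262), and without embryo 10 it did (-0.85, adjusted p = 0.0217). For Sfmbt2, the maternal copy stood at 274 ± 113 CPM, above every wild-type library in 10 of 10 (exact permutation test, adjusted p = 0.00165). The paternal copy of Sfmbt2 stood at 587 ± 107 against 438 ± 88.4 CPM (adjusted p = 0.0214), a difference that missed the threshold under TMM scaling (adjusted p = 0.102).

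Markers of other tissues moved with the knockouts in ExE, and their part in these results was not tested. In Eed ExE the 7 ExE markers summed to 362 to 673 CPM against 647 to 1207 in the wild type, and 5 of the 7 fell. In Rnf2 ExE they summed to 547 to 1146 CPM and 3 of 7 fell (Eomes, Fgfr2 and Bmp4). In G9a-Glp ExE 1 fell (Fgfr2, sum at most 1056 CPM). In Dnmt1 ExE 0 passed the edgeR test, with 2 at an unadjusted p under 0.05 (848 to 1388 CPM). Over all genes 40.8%, 22.2%, 15.2% and 18.5% were called for total reads in Eed, Rnf2, G9a-Glp and Dnmt1 ExE. The marker counts in G9a-Glp and Dnmt1 are thus near or under the background and no result about the markers. Of 5 markers of giant cells and spongiotrophoblast, 3 were in the table. Prl3d1, a placental lactogen gene of giant cells, had no reads in ExE of any group, and the sum (130 to 365 CPM in Eed, 133 to 535 in Rnf2 and 15 to 220 in the wild type) came almost wholly from the transcription factor gene Ascl2. Ascl2 was itself called maternal in wild-type ExE (7.59 log2 units) and changed toward the father in Eed (-7.45) and Rnf2 (-7.84). The summed reads were 97.6% to 100% maternal in BDF1xCAST wild-type ExE, 56.3% to 94.8% in Eed and 62.9% to 70.4% in Rnf2. How far the sum followed cell types or the use of the alleles was not tested. The epiblast markers summed to 343 to 630 CPM in Eed, 357 to 663 in G9a-Glp, 365 to 573 in Rnf2 and 468 to 628 in Dnmt1 ExE, against 142 to 317 CPM in BDF1xCAST and 145 to 518 CPM in CASTxBDF1 wild-type ExE, while Sfmbt2 itself reached at most 111 CPM in any epiblast library. Markers of visceral endoderm, the layer stripped off before collection, summed to 22.3 to 60.0 CPM in Eed, 19.6 to 136 in G9a-Glp, 19.8 to 33.2 in Rnf2 and 13.2 to 37.0 in Dnmt1 ExE. In wild-type ExE they summed to 7.90 to 19.3 CPM in BDF1xCAST and 5.37 to 22.9 CPM in CASTxBDF1. Of 9 markers of decidua and blood, which would bring RNA of the female that carried the embryo, 6 were in the table. For BDF1xCAST embryos this female was a CD-1 foster mother, and how CD-1 reads would be assigned to the alleles was not tested. These 6 markers summed to 1.71 to 14.8 CPM in Eed, 0 to 3.48 in G9a-Glp, 2.44 to 7.34 in Rnf2 and 0.43 to 2.92 in Dnmt1 ExE. In wild-type ExE they summed to 0 to 0.745 CPM in BDF1xCAST and 0 to 0.85 CPM in CASTxBDF1. Des, a muscle and stromal filament gene, was the only one with enough reads for the test, and only in Eed ExE, where it rose to 7.14 CPM on average (4.24 log2 units, SE 0.53, edgeR adjusted p = 2.77e-06). In Eed ExE the decidual gene Prl8a2 reached at most 0.252 CPM and Dcn and Ptprc had no reads, while Col1a2 and Hbb-bt reached at most 0.368 and 5.48 CPM. In G9a-Glp ExE Prl8a2 had no reads and Dcn, Col1a2 and Ptprc reached at most 0.303, 0.373 and 0.607 CPM. In Rnf2 and Dnmt1 ExE the sum came from Des, and the others had no reads. The autosomal maternal share was 56.4% to 57.8% in Eed and 56.5% to 57.4% in G9a-Glp ExE, beside 56.9% to 57.7% in BDF1xCAST wild-type ExE. Fewer cells of a type and less RNA per cell cannot be told apart in such samples.

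In Rnf2 knockout ExE both genes stayed mostly paternal, with a small maternal fraction. Rnf2 transcript lay below the lowest BDF1xCAST wild-type library in 0 of these 5 libraries. The Sfmbt2 maternal shares were 7.00%, 8.00%, 3.42%, 4.01% and 1.99% in embryos 2, 4, 5, 6 and 7. All 5 lay above the wild-type range, and their mean was 4.88% ± 2.52, a change of 6.68 log2 units (edgeR adjusted p = 3.58e-06, with 0.922% of genes called). Its total stood at 403 ± 56.9 CPM, within the wild-type spread (-0.17 log2 units, SE 0.14, edgeR adjusted p = 0.395, with 22.2% called), and the maternal copy at 20.3 ± 12.1 CPM (exact permutation test, adjusted p = 0.00505). Gm13261 gave 7.97%, 2.86%, 0%, 3.05% and 1.06% in the same embryos, where the 0 came from 80 reads and 3 counts would be 3.75%. Its allelic change of 3.72 log2 units passed narrowly (edgeR adjusted p = 0.0324) and was lost when any of 6 wild-type libraries (embryos 1, 2, 3, 6, 7 and 8) or Rnf2 embryo 2 or 4 was left out. Without the 3 libraries whose Rnf2 transcript was not lower, it was 2.85 (adjusted p = 0.34), and the Sfmbt2 change kept its call. Total Gm13261 fell to 44.4 ± 9.84 CPM (36.0 to 61.3), by 0.82 log2 units (SE 0.20, edgeR adjusted p = 0.00785), and this call was also lost without those 3 libraries (adjusted p = 0.0648). In these Rnf2 libraries 3 of 7 ExE markers fell as well, and the part of this was not tested.

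Dnmt1 loss gave few maternal reads at this locus. The 3 ExE libraries had Sfmbt2 maternal shares of 1.02%, 0% and 5.01%, where the 0 allows up to 0.424%, and Gm13261 shares of 4.71%, 1.89% and 11.1% (4 of 85, 1 of 53 and 7 of 63 reads). For both genes the library of embryo 2 lay within the wild-type range and the other 2 above it. The log2 changes were 5.35 for Sfmbt2 (edgeR adjusted p = 0.00448) and 4.30 for Gm13261 (adjusted p = 0.0268), with 0.856% of genes called. Neither call held without embryo 3 (3.27, adjusted p = 0.229, and 3.55, adjusted p = 0.368), that of Gm13261 was also lost without embryo 1 (4.51, adjusted p = 0.0907), and that of Sfmbt2 was lost at the unfavourable end of the rounding (2.24, adjusted p = 0.131). In the same libraries 7 canonical paternally expressed genes (of 8 listed, those found in the table), such as Peg3, Peg10 and Mest, whose imprints are DNA methylation marks from the germ line, gave 46.8% to 51.6% maternal reads when summed, against 0.772% to 7.84% in wild-type ExE. Their summed maternal share was 3.95% to 25.5% in G9a-Glp, 2.05% to 35.1% in Rnf2 and 2.35% to 39.9% in Eed ExE.

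The levels in Dnmt1 ExE went apart. Gm13261 fell to 33.8 ± 8.46 CPM (43.3, 31.0 and 27.1), below every wild-type library, by 1.41 log2 units (SE 0.26, edgeR adjusted p = 0.00312, with 18.5% of genes called). Sfmbt2 stood higher, at 651, 689 and 807 CPM against at most 618 in the wild type, but by 0.46 log2 units after TMM scaling (SE 0.16, edgeR adjusted p = 0.0628). TMM scaling lowered Dnmt1 ExE relative to the wild type by 0.26 log2 units, Eed ExE by 0.18 and G9a-Glp and Rnf2 ExE by 0.10 and 0.07. The paternal Sfmbt2 copy was 700 ± 62.0 CPM (exact permutation test, adjusted p = 0.019, from p = 0.00833, the smallest that 3 against 7 libraries can give), and on TMM-scaled library sizes the difference did not pass (adjusted p = 0.0667). The paternal Gm13261 copy fell to 31.9 ± 8.69 CPM (exact permutation test, adjusted p = 0.019), and the maternal copy stood at 1.88 ± 1.22 CPM (adjusted p = 0.0314).

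**Figure D2:**
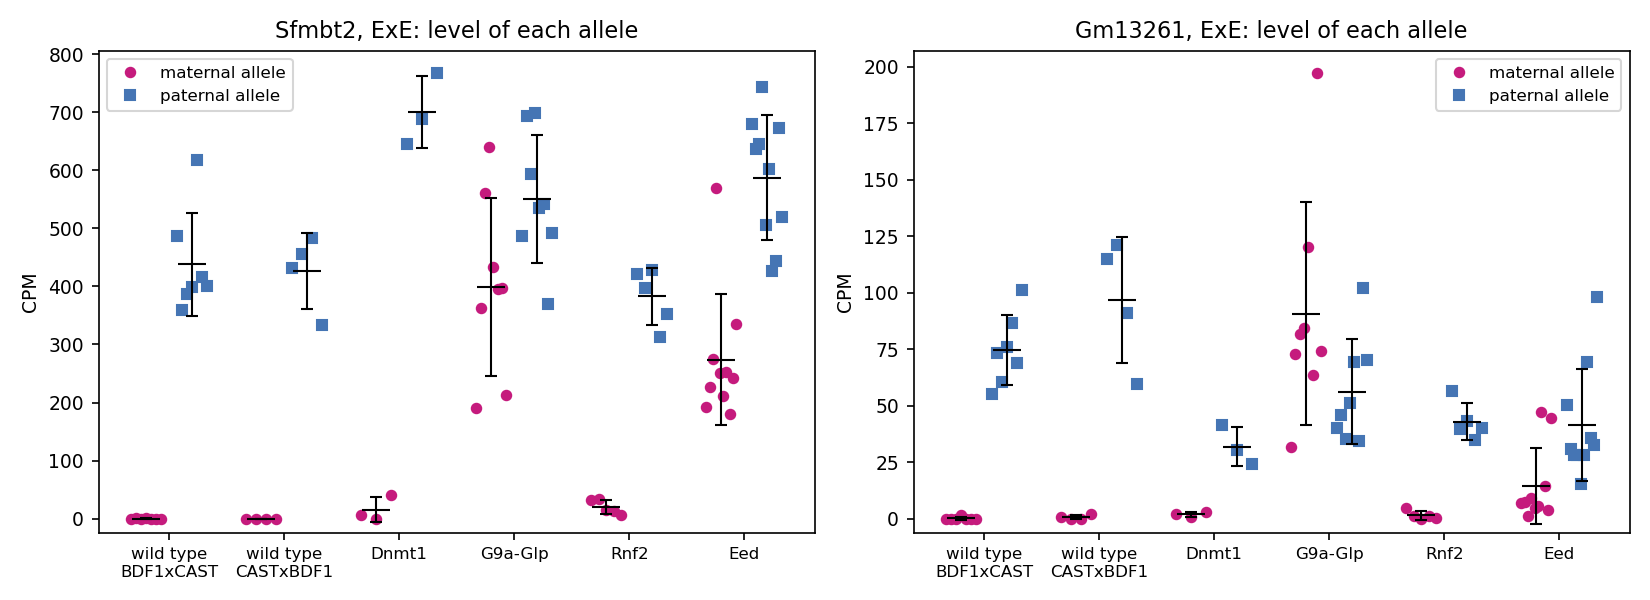
Level of the maternal (circles) and paternal (squares) allele of Sfmbt2 (left) and Gm13261 (right) in ExE, in CPM, with 1 point per library and the mean and SD in black. Maternal Sfmbt2 reaches 190 to 640 CPM in G9a-Glp and 181 to 569 CPM in Eed ExE, and paternal Gm13261 lies at 24.1 to 41.3 CPM in Dnmt1 ExE against 55.3 to 101 CPM in the wild type.

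The knockouts were also compared with each other in ExE, in 6 pairs that share libraries. For Sfmbt2 the allelic ratio was higher in G9a-Glp than in Rnf2 (3.74 log2 units, edgeR adjusted p = 3.85e-08) and lower in Dnmt1 than in G9a-Glp (-4.97, adjusted p = 7.63e-07), lower in Dnmt1 than in Eed (-4.36, adjusted p = 2.14e-06) and lower in Rnf2 than in Eed (-3.13, adjusted p = 7.32e-08). Between G9a-Glp and Eed it differed by 0.62, which did not pass (adjusted p = 0.0824), and between Dnmt1 and Rnf2 by -1.22 (adjusted p = 0.609). For Gm13261 the ratio was higher in G9a-Glp than in each of the other 3. It was higher by 2.37 than in Eed (edgeR adjusted p = 4.51e-06) and by 5.27 than in Rnf2 (adjusted p = 2.36e-09), and Dnmt1 differed from G9a-Glp by -4.58 (adjusted p = 1.45e-06). It was lower in Rnf2 than in Eed (-2.92, edgeR adjusted p = 0.00388), while Dnmt1 against Eed (-2.17, adjusted p = 0.23) and against Rnf2 (0.74, adjusted p = 0.856) did not pass. Each gene thus passed in 4 of 6 pairs. The share of all genes called was 0.387% for Dnmt1 against G9a-Glp, 0.193% for Dnmt1 against Rnf2, 0.681% for Dnmt1 against Eed, 0.708% for G9a-Glp against Rnf2, 2.39% for G9a-Glp against Eed and 0.253% for Rnf2 against Eed.

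Within single libraries the maternal shares of Sfmbt2 and Gm13261 differed, and in opposite directions in G9a-Glp and Eed ExE. In G9a-Glp ExE the maternal share of Gm13261 exceeded that of Sfmbt2 in 8 of 8 libraries, by 19.4 ± 4.45 percentage points (14.2 to 27.0). In Eed ExE it was lower in 8 of 10, with a mean difference of -10.1 ± 8.61 points (-26.1 to 3.09). The difference between these knockouts was 29.5 points (exact permutation test, p = 2.29e-05, the smallest this design can give). This comparison was chosen after the values were seen. Rnf2 ExE gave -1.89 ± 2.39 points (n = 5) and Dnmt1 ExE 3.89 ± 2.12 (n = 3). Across G9a-Glp embryos the shares of both genes rose together (Pearson r = 0.87, exact permutation p = 0.00174, adjusted p = 0.00348 over 2 relations, Spearman rho = 0.88, exact permutation p = 0.00724), with r = 0.60 without the 2 embryos farthest from the median Sfmbt2 share. Across the 10 Eed embryos r was 0.61 (permutation p = 0.0613, rho = 0.61, permutation p = 0.0649) and 0.68 without the 2 farthest.

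**Figure D3:**
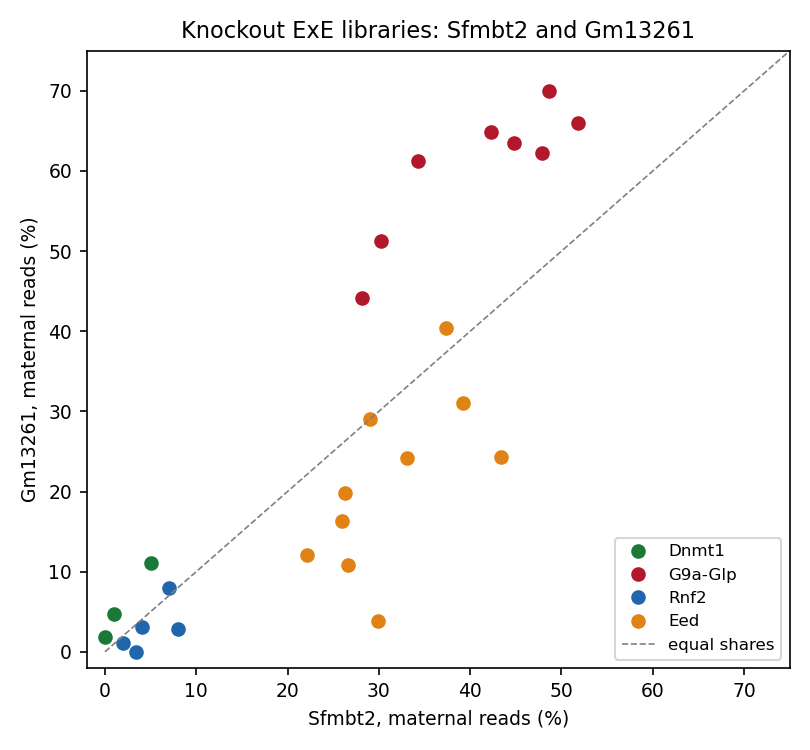
Maternal share of Gm13261 against that of Sfmbt2, in percent, for each knockout ExE library (1 point each), with a dashed line at equal shares. All 8 G9a-Glp points lie above the line and 8 of 10 Eed points below it.

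In the epiblast, where the BDF1xCAST wild type held 4.97 ± 3.41 CPM (n = 7), Sfmbt2 was higher in the Polycomb knockouts. It rose to 66.7 ± 31.2 CPM in Rnf2 (31.7 to 111, n = 6), by 3.83 log2 units (SE 0.42, edgeR adjusted p = 9.52e-06, with 31% of genes called), and to 44.0 ± 20.3 CPM in Eed (23.6 to 93.1, n = 9), by 3.09 (SE 0.37, adjusted p = 7.72e-06, 35.7% called). Every library of both knockouts lay above every BDF1xCAST wild-type library. CASTxBDF1 wild-type embryo 2, at 30.1 CPM, lay within the Eed range and just below the Rnf2 range. G9a-Glp epiblast stood at 12.3 ± 6.78 CPM (2.99 to 21.0, n = 6) and overlapped the wild type (1.31 log2 units, SE 0.47, edgeR adjusted p = 0.0405, 34.6% called). Dnmt1 epiblast stood at 22.0, 24.5 and 9.39 CPM (1.75 log2 units, SE 0.53, edgeR adjusted p = 0.0435, 14.1% called), a call lost when any 1 of its 3 libraries was left out (1.51 to 2.05, adjusted p = 0.0529 to 0.159). These levels stayed far below the 326 to 454 CPM of Rnf2 ExE and the 624 to 1313 CPM of Eed ExE.

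The added epiblast Sfmbt2 came mostly from the paternal allele, which is CAST in all knockouts, so parent and strain cannot be told apart here. In wild-type epiblast the maternal share over all Sfmbt2 reads was 56.8% in BDF1xCAST and 9.59% in CASTxBDF1. The paternal copy rose from 1.86 ± 1.11 CPM to 54.2 ± 22.6 in Rnf2 and 31.5 ± 14.7 in Eed (exact permutation tests, adjusted p = 0.00266 each), above every BDF1xCAST wild-type library in 6 of 6 and 9 of 9. It was also higher in Dnmt1, at 15.6 ± 7.51 (3 of 3 above, exact permutation test, adjusted p = 0.019), and in G9a-Glp, at 7.41 ± 5.84 CPM (4 of 6 above, adjusted p = 0.017). In CASTxBDF1 wild-type epiblast the paternal copy stood at 12.5 ± 10.8 CPM (n = 4) and reached 27.5 CPM. The maternal copy rose in Eed, from 3.12 ± 3.58 to 12.5 ± 6.27 CPM (exact permutation test, adjusted p = 0.00715). In Rnf2 it stood at 12.5 CPM on average (2.70 to 24.2) (adjusted p = 0.0781), and in G9a-Glp and Dnmt1 at 4.87 ± 2.77 and 3.01 ± 3.61 CPM (adjusted p = 0.403 and 0.967). Maternal shares were accordingly 16.2% ± 9.05 in Rnf2 (7.77% to 26.8%) and 28.5% ± 5.42 in Eed (20% to 37.4%), with far more reads behind them than in the wild type (258 to 962 and 55 to 286 reads per library). The change in allelic ratio was toward the father in Rnf2, by -2.83 log2 units (edgeR adjusted p = 0.0446, with 0.696% called), a call lost without the 3 libraries described next (-3.07, adjusted p = 0.0805). It was -1.67 in Eed (edgeR adjusted p = 0.079, 1.06% called), -0.84 in G9a-Glp (adjusted p = 0.794, 1.79% called) and -3.01 in Dnmt1 (adjusted p = 0.302, 0.908% called), none of which passed.

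Elf5, the ExE gene, moved with part of this signal, and the part of ExE RNA in it was not tested. Elf5 stood above the wild-type BDF1xCAST epiblast range in Rnf2 embryos 1, 2 and 8 (16.5, 16.7 and 50.0 CPM), in Eed embryo 8 (18.9 CPM) and in Dnmt1 embryo 2 (7.01 CPM), against 265 ± 80.2 CPM (n = 7) in wild-type ExE. These include the highest Sfmbt2 libraries of Rnf2 (111 and 91.0 CPM) and of Eed (93.1 CPM). A split by the BDF1xCAST wild-type Elf5 range was chosen after seeing the data. Within that range Sfmbt2 was 31.7 to 74.6 CPM in 3 Rnf2 embryos and 23.6 to 49.9 CPM in 8 Eed embryos. The BDF1xCAST wild-type maximum was 11.4 CPM, and CASTxBDF1 embryo 2, with Elf5 above that range, held 30.1 CPM. In fits of only these Rnf2 or Eed libraries with the BDF1xCAST wild type, both increases passed. The Dnmt1 increase did not pass (1.51, edgeR adjusted p = 0.159). The whole list of 7 ExE markers summed to 26.0 to 159 CPM in Rnf2 and 33.3 to 116 CPM in Eed epiblast, against 33.7 to 241 CPM in the wild type, since it includes Eomes, which the epiblast also expresses. Cdx2 had no reads in wild-type BDF1xCAST epiblast. Visceral endoderm markers summed to 31.5 to 183 CPM in Dnmt1, 8.90 to 289 in G9a-Glp, 9.40 to 77.7 in Rnf2 and 12.2 to 41.7 in Eed epiblast. In wild-type epiblast they summed to 2.11 to 443 CPM in BDF1xCAST and 3.98 to 2037 CPM in CASTxBDF1, and their part was not tested.

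Gm13261 was barely read in BDF1xCAST wild-type epiblast, at 0 to 12.2 CPM (median 0.396). CASTxBDF1 wild-type epiblast stood at 0.742, 16.4, 0.41 and 3.62 CPM. Relative to BDF1xCAST, Gm13261 rose in Rnf2 to 25.1 ± 14.8 CPM (9.01 to 45.9), by 3.73 log2 units (SE 0.71, edgeR adjusted p = 0.00101), and in G9a-Glp to 14.6 ± 4.70 CPM (6.72 to 18.8), by 2.85 (SE 0.69, adjusted p = 0.00395). BDF1xCAST embryo 8 and CASTxBDF1 embryo 2 overlapped both groups. The paternal copy lay above every BDF1xCAST wild-type library in 6 of 6 embryos of either knockout (20.9 ± 11.5 and 9.81 ± 2.81 against 0.804 ± 0.909 CPM, exact permutation tests, adjusted p = 0.00266 each), and the maternal copies did not pass (adjusted p = 0.437 and 0.173). In CASTxBDF1 wild-type embryo 2 the paternal copy stood at 16.0 CPM, within the Rnf2 range and above every G9a-Glp library. Dnmt1 gave 8.44, 8.76 and 0.671 CPM (edgeR adjusted p = 0.466). In Eed it reached 0 to 14.0 CPM (median 1.78) and did not enter the test of totals for want of reads. Thus Eed epiblast held Sfmbt2 in all 9 libraries but fewer than 10 Gm13261 reads in 7 of them.

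**Figure D4:**
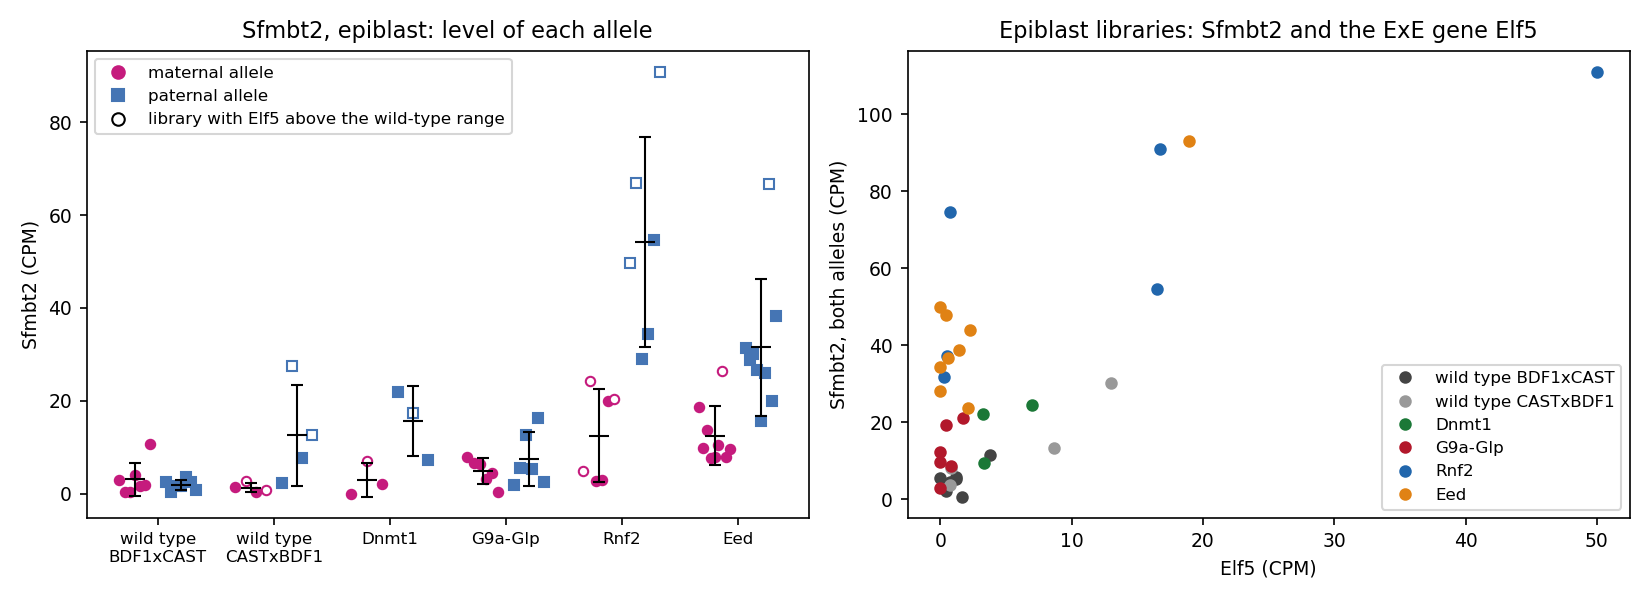
Left, level of each Sfmbt2 allele in epiblast libraries, in CPM, with the mean and SD in black and open symbols for libraries whose Elf5 lay above the wild-type BDF1xCAST range. Right, total Sfmbt2 against Elf5, both in CPM, with 1 point per epiblast library; Rnf2 and Eed libraries within the wild-type Elf5 range lie at 23.6 to 74.6 CPM of Sfmbt2.

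Other noncanonical imprints were set beside the locus. The list held Gab1 (an adaptor of receptor tyrosine kinases), Smoc1 (a secreted calcium-binding protein), Jade1 (part of a histone acetyltransferase complex), Slc38a4 (an amino acid transporter) and the noncoding genes Platr20 and Gm32885. All 6 were called paternal in wild-type ExE. Toward the mother, 6 of 6 were called in G9a-Glp, 5 of 6 in Eed, 2 of 6 in Rnf2 and 3 of 6 in Dnmt1 ExE, with median log2 changes of 4.56, 3.34, 2.06 and 1.83, against medians over all genes between -0.00906 and -0.00363. In Dnmt1 ExE, Slc38a4 reached 22.7% ± 8.93 maternal and Gm32885 21.0% ± 2.26, beside 2.01% ± 2.65 for Sfmbt2. In Eed ExE Gm32885 stood at 4.90% ± 3.84, beside 31.3% ± 6.79 for Sfmbt2, and in Rnf2 ExE Smoc1 reached 20.3% ± 13.1. These counts stood beside 1.1%, 2.65%, 0.922% and 0.856% of all genes called, and limma called 6, 4, 0 and 1 of the 6. Differences between these genes were not tested, and comparisons that share the wild-type libraries are given side by side only. Total reads rose for 4 of the 6 in G9a-Glp ExE, and for 1, Slc38a4, in Rnf2 and in Eed ExE, while Gm32885 fell in Dnmt1, Rnf2 and Eed ExE. Over all genes 15.2%, 22.2%, 40.8% and 18.5% were called for total reads in G9a-Glp, Rnf2, Eed and Dnmt1 ExE.

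**Figure D5:**
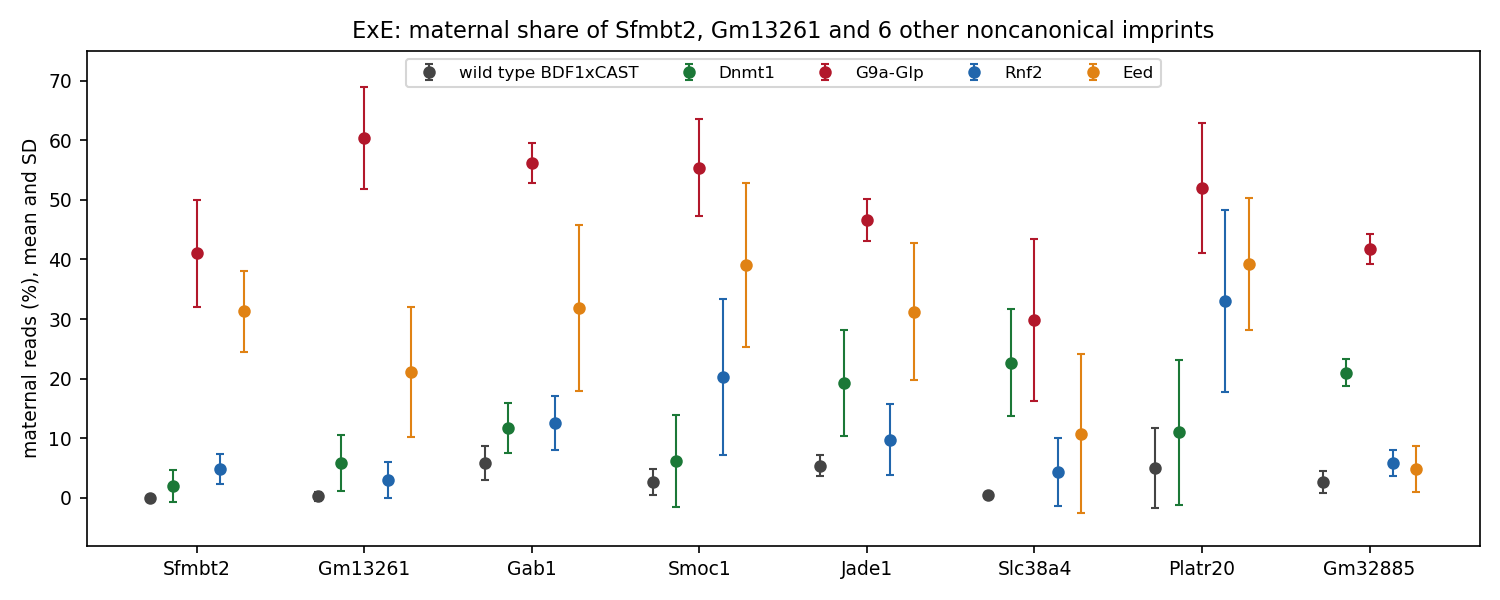
Mean maternal share with SD, in percent of a gene's reads, in ExE of wild-type BDF1xCAST and knockout embryos for Sfmbt2, Gm13261 and 6 other noncanonical imprints. G9a-Glp is highest for every gene shown, while Dnmt1 lies at 2.01% for Sfmbt2 and 22.7% for Slc38a4.

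By the mean absolute difference in maternal share over the 37 ExE libraries, the genes most like Sfmbt2 among 5325 with at least 20 reads in each library were Jade1 (7.45 percentage points), Gab1 (8.99), 2400006E01Rik (9.04), Smoc1 (9.21) and Platr4 (11). Gm13261 lay at 7.88 points, and the median gene at 35.1. For total level, the Pearson correlation of log2(CPM + 1) over all 72 libraries was 0.95 with each of H19, Slc25a4, Nid1 and Bmp8b, which were among the most like of 7704 genes. These libraries span the 2 tissues, which set most of the range. Gm13261 followed at rank 288 with 0.83.

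Neighbouring genes were tested where reads allowed. Of 40 other genes within 1 Mb, 6 to 9 had enough reads in the 4 ExE comparisons of knockouts and wild type, and 0 passed the edgeR test of the allelic ratio in any of them. Since 0.856% to 2.65% of all genes were called, a count of 0 among 6 to 9 genes is near the background and is no result about the neighbours. At an unadjusted p under 0.05 there was 1 in G9a-Glp (Gm13262, -1.35 log2 units), 1 in Eed (Itih5, -1.57) and 0 in Rnf2 and Dnmt1, both toward the father, and limma also called 0. The nearest tested gene on the Gm13261 side, the noncoding Gm31496, gave 84.8% maternal reads in BDF1xCAST and 0% in CASTxBDF1 wild-type ExE, so it followed the BDF1 allele and not the parent. On the other side the nearest tested gene was Pfkfb3, a regulator of glycolysis, with 51.3% and 42.2%. For total levels, 1 neighbour fell of 9 tested in Dnmt1 and of 8 in G9a-Glp ExE. Of 9 tested in Rnf2 and in Eed ExE, 1 rose and 1 fell in each. Over all genes 18.5%, 15.2%, 22.2% and 40.8% were called, so these counts are near or under the background and no result about the neighbours. The comparisons share their wild-type libraries. Kin, which encodes a nucleic acid binding protein, fell in Dnmt1 (-1.06 log2 units, SE 0.18, edgeR adjusted p = 0.00196), G9a-Glp (-1.11, SE 0.12, adjusted p = 2.29e-06) and Eed ExE (-0.81, SE 0.19, adjusted p = 0.00154). Itih5 rose in Eed ExE (2.15, SE 0.25, adjusted p = 1.46e-06), Gm31496 fell in Rnf2 ExE (-1.62, SE 0.51, adjusted p = 0.0317), and Rbm17 rose there (0.37, SE 0.13, adjusted p = 0.0472).

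Genes for partners of SFMBT2 in Polycomb-type complexes were examined for their levels. Of 12 listed genes 11 were tested in ExE, and 1 passed in each knockout, which is below the share of all genes called (15.2% to 40.8%). Yy1, the DNA-binding factor that recruits such complexes, fell in Dnmt1 ExE (-1.23 log2 units, SE 0.35, edgeR adjusted p = 0.0275). Yaf2, a YY1-associated PRC1 subunit, rose in G9a-Glp (0.70, SE 0.15, adjusted p = 0.004), Max rose in Rnf2 (0.91, SE 0.30, adjusted p = 0.0415) and Pcgf6 fell in Eed ExE (-0.56, SE 0.11, adjusted p = 0.00046). In epiblast the counts were 8 of 10 tested in G9a-Glp (3 rose and 5 fell), 6 of 10 in Eed, 5 of 10 in Rnf2 and 2 of 12 in Dnmt1, beside 34.6%, 35.7%, 31% and 14.1% of all genes. The Rnf2 count includes Rnf2 itself, the targeted gene. Max, the dimer partner of MGA, rose in all 4 epiblast comparisons (1.40, 2.10, 1.82 and 1.72 log2 units in Dnmt1, G9a-Glp, Rnf2 and Eed, edgeR adjusted p = 0.0461, 9e-06, 0.000183 and 0.000141), and these comparisons share their wild-type libraries. No partner passed the edgeR test of the allelic ratio in any knockout and tissue (0 called of 10 or 11 tested). Since 0.696% to 2.65% of all genes were called, this count is near the background and no result about the partners. At an unadjusted p under 0.05 there were 0 to 3 per comparison, and limma also called 0.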

How the data were processed

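RNA of 72 libraries was analysed; 1 bisulfite library was not analysed here. Per the submitters' processing notes the tools were STAR 2.5.0 and HTSeq, with the mm10 build. Per the file headers, the authors deposited for each gene the count of reads over polymorphisms with both alleles summed, without normalization, and an allelic ratio (CAST share minus 0.5) and allelic score (a signed -log10 binomial p-value), both treated here as a score. Whether counting used strand is not given in the sources used here.

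Whole CAST reads were recovered from ratio and score (712257 of 714983 values matched the score within 0.0006). In 3392 values (0.474%), Sfmbt2 in 16 libraries among them, the score gave no whole number and the ratio, rounded to within 0.5 percentage points, was used. Shares are given for libraries with at least 10 reads.

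Allelic ratios (maternal over paternal) and totals (TMM scaling, filterByExpr) were tested with edgeR 4.0.16 (quasi-likelihood, two-sided, R 4.3.3) over all genes with Benjamini-Hochberg adjustment at 0.05. Allelic fits had a term per library and took autosomal genes that reached 10 reads in 3 or more libraries on both sides of a comparison. The allelic log2 values come without a standard error. Allele levels in CPM were compared by exact two-sided permutation, 32 tests in 1 family. Alternatives used limma 3.58.1, DESeq2 1.42.0, other filters, a replicate block and left-out libraries. Tissues of 1 wild-type embryo are paired through the labels (correlation of deviations 0.02 to 0.47 in BDF1xCAST and 0.07 to 0.38 in CASTxBDF1). Eed tissues were not paired, since their embryo numbers and title numbers disagree. Title number 30 is ExE embryo 7 and epiblast embryo 8, 31 is ExE embryo 8 and epiblast embryo 9, and 32 is ExE embryo 9 and epiblast embryo 10. For other comparisons the equal numbers did not pair libraries.

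Sfmbt2, Gm13261, the gene lists and the naming rule (listed genes that pass, the nearest tested neighbours, and the 5 genes most like Sfmbt2 by each measure) were chosen with earlier results of these data known. A gene that this rule picked is not reported here.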

Additional observations from a re-analysis of the deposited data

Results flagged for a closer look

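Of 36 groups of 4 to 10 libraries examined for a library far from the rest, 8 held one. The rule would flag about 1 in 20 groups of normally distributed values. CPM and shares from few reads need not be so distributed, so the count of 8 is not read as an excess. Sfmbt2 stood at 93.1 CPM in Eed epiblast embryo 8 (next 49.9), and Gm13261 at 14.0 CPM in the same library (next 5.59), which also held 18.9 CPM of Elf5. Sfmbt2 stood at 1313 CPM in Eed ExE embryo 4 (next 920), which also had the highest maternal share of the group. Gm13261 stood at 61.3 CPM in Rnf2 ExE embryo 2 (next 43.3) and at 12.2 CPM in BDF1xCAST wild-type epiblast embryo 8 (next 2.52). In that epiblast library 14 of 16 Gm13261 reads were maternal, and visceral endoderm markers summed to 443 CPM against a group median of 5.08. The Sfmbt2 maternal share was 40.0% in CASTxBDF1 epiblast embryo 1 (next 8.86%), from 10 reads. The Gm13261 maternal share was 3.12% in CASTxBDF1 ExE embryo 4 (next 0.515%) and 1.92% in BDF1xCAST ExE embryo 4 (next 0%).

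Some differences from the wild type had opposite signs in the 2 tissues, and this contrast between tissues was not tested. The mean Sfmbt2 maternal share in Rnf2 differed from the wild type by 4.83 percentage points in ExE and by -42.0 in epiblast. In Eed it differed by 31.2 points in ExE and by -29.7 in epiblast, where the allelic ratio did not pass (edgeR adjusted p = 0.079). The wild-type epiblast share rested on 5 BDF1xCAST libraries of 12 to 15 reads (58.2% ± 24.8), and CASTxBDF1 epiblast had a mean of 14.8%, beside 28.5% in Eed epiblast. The Gm13261 level in Rnf2 differed by -30.4 CPM in ExE and by 22.7 CPM in epiblast. The excess of the Gm13261 over the Sfmbt2 maternal share differed between G9a-Glp and Eed ExE by 29.5 points (exact permutation test, p = 2.29e-05, the smallest this design can give).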

How the results depend on the processing

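Of 567 values of Sfmbt2 and Gm13261 under alternatives, 520 kept direction and side of the threshold, 38 lost the call, 9 gained it and 0 reversed. The allelic changes of Sfmbt2 in G9a-Glp, Rnf2 and Eed ExE, those of Gm13261 in G9a-Glp and Eed ExE, and the Sfmbt2 totals in G9a-Glp and Eed ExE kept their call under every alternative run. The cause of the changes below was not tested, except that fits without libraries have fewer samples. Few reads limit Gm13261 in Dnmt1 ExE and Eed epiblast, and both genes in wild-type epiblast.

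With limma, calls were lost for the allelic ratio of Sfmbt2 in Rnf2 epiblast (-2.79) and Dnmt1 ExE (3.29), and of Gm13261 in Dnmt1 ExE (4.20), Rnf2 ExE (2.85) and Rnf2 against Eed (-3.34). Without a filter on low counts, calls were gained for Sfmbt2 in Eed epiblast (-1.67) and G9a-Glp against Eed (0.62), and for Gm13261 in Dnmt1 against Eed (-2.17). With all BDF1xCAST groups in 1 fit, Gm13261 lost the allelic call in Dnmt1 ExE (4.36) and the calls of totals in Dnmt1 (-1.42), G9a-Glp (0.90) and Rnf2 ExE (-0.84). Without libraries whose targeted gene was not lower, Gm13261 lost the allelic calls in Dnmt1 (4.51) and Rnf2 ExE (2.85) and the total in Rnf2 ExE (-0.95). DESeq2 called the Sfmbt2 total in Dnmt1 ExE (0.47). Chosen after seeing the data, the unfavourable end of the rounding gave 2.24 for the allelic ratio of Sfmbt2 in Dnmt1 ExE, and leaving out epiblast libraries with high Elf5 gave -3.07 for its allelic ratio in Rnf2 and 1.51 for its total in Dnmt1 epiblast, each without a call. On TMM-scaled library sizes 3 differences in allele level did not pass: paternal Sfmbt2 in Dnmt1 (158 CPM) and Eed ExE (83.3 CPM) and maternal Gm13261 in Eed ExE (15.2 CPM).

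Same-numbered libraries of different genotypes correlated above 0.1 in at most part of the pairs of any comparison. With a replicate block, the tissue difference of Gm13261 was -6.62, and calls were lost for Sfmbt2 in Rnf2 epiblast (allelic, -2.69) and G9a-Glp epiblast (total, 1.31) and for Gm13261 in Rnf2 ExE (allelic 2.97, total -0.87) and G9a-Glp ExE (total, 0.60). Calls were gained for the totals in Dnmt1 ExE of Sfmbt2 (0.62) and in Eed ExE of Gm13261 (-0.87). It changed no other call of these genes.

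Leaving out 1 library at a time gave 1.51 to 2.05 for the Sfmbt2 total in Dnmt1 epiblast. In Dnmt1 ExE it gave 3.27 to 5.98 for the allelic ratio and 0.38 to 0.58 for the total of Sfmbt2, and 3.55 to 6.65 for the allelic ratio of Gm13261. For Gm13261 it gave 2.91 to 6.87 for the allelic ratio in Rnf2 ExE and -0.85 to -0.36 for the total in Eed ExE. The Sfmbt2 total in Dnmt1 ExE passed without wild-type embryo 6 or 8.

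Counts of all genes called stayed within 1.5 times in 219 of 281 alternatives. With no filter the allelic count went from 27 to 58 (wild-type epiblast), 73 to 154 (wild-type ExE), 66 to 163 (Dnmt1 ExE), 96 to 208 (G9a-Glp ExE), 83 to 251 (Rnf2 ExE) and 237 to 416 (Eed ExE), and limma gave 13, 36, 15 and 152 in the 4 knockouts. In epiblast limma gave 25, 51, 27 and 23 against 65, 156, 64 and 96, and no filter gave 137, 273, 210 and 217. The replicate block took the count of totals in Rnf2 ExE from 2113 to 542, and in Rnf2 and Eed epiblast from 3144 to 1332 and 3510 to 1842. Without Dnmt1 embryo 3 its ExE total count went from 1804 to 603.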
